A study of Mus musculus with 5 samples.

Results

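The genes described here encode 6 calmodulin-dependent protein kinases, chosen by symbol: Camk2a, Camk2b, Camk2d, Camk2g, Camk1d and Camk4. They are 6 of the 32285 gene rows counted in nuclei of mouse hindlimb skeletal muscle, in which RNA and open chromatin were read from the same nuclei. The 5 libraries were made from pooled hindlimbs, 1 for each group. The group lacking the channel was Cacna1s-/- C57bl6n at E18.5 (KO, 26 hindlimbs pooled), and the groups on the WT C57bl6n background were E14.5 (56 hindlimbs), E18.5 (14), P5 (8) and adult muscle at 8 weeks (4). Cacna1s encodes the pore of the voltage-gated L-type calcium channel of muscle. Each group was 1 library of 1 pool, so no test between groups was possible. Every interval below covers counting error only, not the spread between animals.

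Calcium released at each contraction binds calmodulin, and calcium-loaded calmodulin opens the catalytic domain of these kinases. CaMKII is a ring of subunits from the genes Camk2a, Camk2b, Camk2d and Camk2g, and it can stay active after the calcium pulse by phosphorylating itself. Camk1d and Camk4 act in a separate cascade, in which an upstream CaM kinase kinase phosphorylates them, and Camk4 is known as a nuclear kinase of CREB. In muscle, CaMKII is known for phosphorylating calcium-handling proteins and class II histone deacetylases, which hold back the transcription factor MEF2.

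Nuclei were called myonuclei where Ttn, Neb, Trdn and Ryr1 together gave at least 1.5% of their unique molecular identifiers (UMIs, each counted as 1 RNA molecule), or 4% in the adult. The rest are called other nuclei, and they mix several cell types. KO muscle gave 981 myonuclei and 2247 other nuclei, and the WT libraries gave 1563 to 4388 myonuclei and 720 to 3003 other nuclei. The nuclei had been stained for PCM1, a protein of myonuclei, and positive and negative ones were mixed after sorting, so these numbers are not the shares in muscle. The median myonucleus held 10200 UMIs in KO and between 3385 (adult) and 6971 (E18.5) in WT. Pairs of libraries shared between 15 and 42 nuclear barcodes. Cacna1s was counted at 0.731 CPM (counts-per-million of all UMIs in the same kind of nuclei) in KO myonuclei, from 8 UMIs, against 189 CPM in WT E18.5 myonuclei and between 211 and 346 CPM at the other WT stages. The library labelled KO was thus the one without the channel's transcript. The summed level of 15 markers of myonuclei was 11154 CPM in KO myonuclei and 5164 to 15668 CPM in WT myonuclei, against 618 CPM in KO other nuclei and 336 to 724 CPM in WT other nuclei.

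The 6 genes did not move together. In myonuclei, only Camk2b was at least 2-fold higher at E18.5 than at E14.5, and again at P5 than at E18.5. In adult myonuclei Camk1d was more than 2-fold higher than at P5, while Camk2b, Camk2d and Camk4 were more than 2-fold lower. In KO myonuclei at E18.5, Camk4 alone was past 2-fold, and it was lower than in WT. Among all genes with at least 10 UMIs, 19% were 2-fold or more higher at E18.5 than at E14.5 and 11.6% lower. The shares were 9.23% higher and 21.1% lower for P5 against E18.5, and 7.77% higher and 38.6% lower for adult against P5. For KO against WT myonuclei, 9.1% of genes were 2-fold or more higher and 6.7% lower. The 1 higher and 3 lower members in the adult thus stand beside a background in which lower genes were also common. The median log2 ratio over all genes was 0.17 for E18.5 against E14.5, -0.34 for P5 against E18.5, -0.54 for adult against P5 and -0.02 for KO against WT. Measured against that median, Camk2d at P5 also passed 2-fold over E18.5 (log2 difference 1.05), and Camk2g passed it in the adult over P5 (1.26). On the same scale Camk2b and Camk2d in the adult were within 2-fold of P5 (log2 differences -0.71 and -0.68), and no direction of a member past 2-fold turned.

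**Figure D1:**
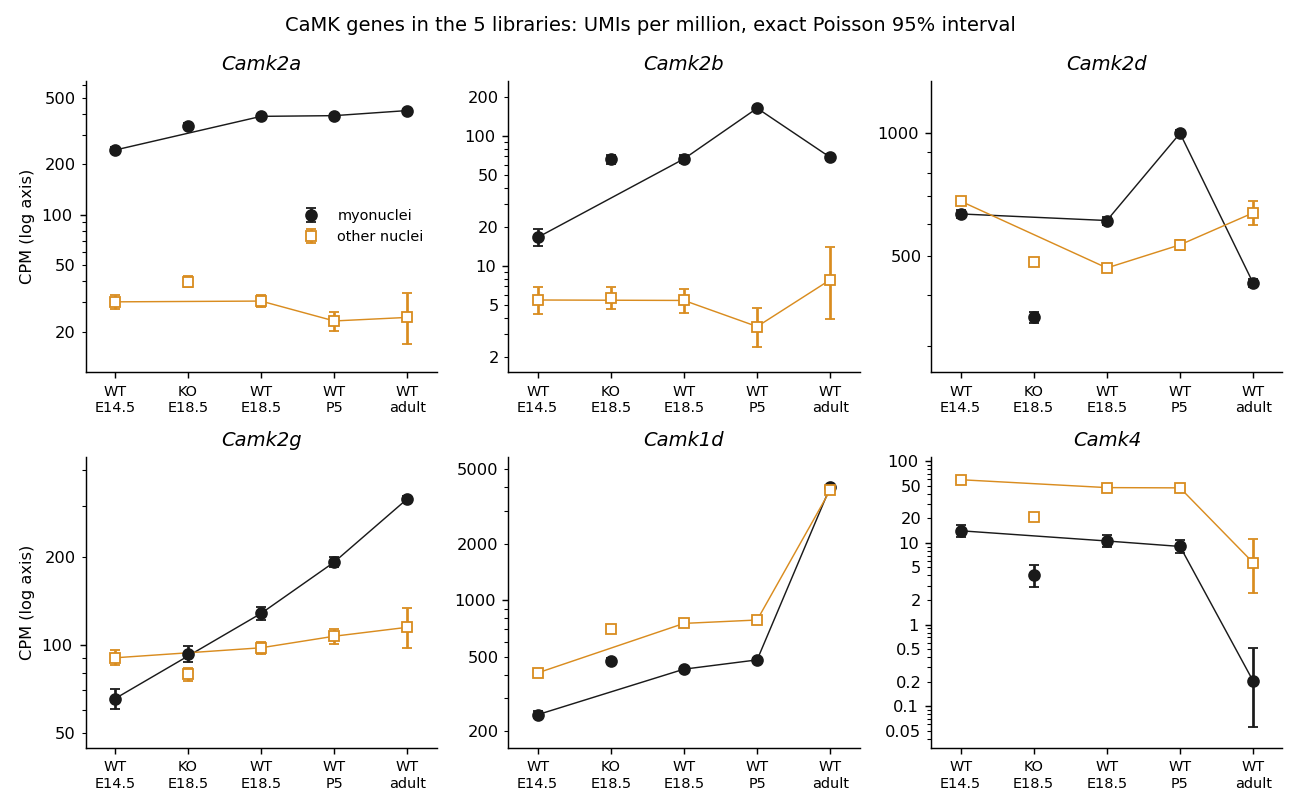
Level of each kinase gene in CPM (log axis, a range of its own in each panel) in the 5 libraries, with KO placed left of WT at E18.5. Filled circles are summed myonuclei, open squares are summed other nuclei, bars are exact Poisson 95% intervals, and lines join the WT stages. Camk2a and Camk2b lie higher in myonuclei in all 5 libraries, Camk4 lies higher in other nuclei in all 5, and Camk1d lies at 4015 and 3869 CPM in the myonuclei and other nuclei of the adult.

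Between the kinds of nuclei, Camk2a and Camk2b were the 2 members more than 2-fold higher in myonuclei in every library, and Camk4 was the 1 member more than 2-fold lower. For these 3 genes the exception among 14 settings was a stricter cut for adult myonuclei (8%), under which Camk2a was 1.66-fold and Camk2b 1.08-fold higher in the adult. In the adult, Camk2g was also past 2-fold, at 317 CPM in myonuclei and 115 CPM in other nuclei. Under the same stricter cut it was 1.21-fold higher. Of all genes, 12.2% were 2-fold or more higher in KO myonuclei than in KO other nuclei and 29.5% lower. In WT the shares were 11.3% and 32.8% at E14.5, 14.1% and 29.4% at E18.5, 12.8% and 39.7% at P5, and 14.8% and 39.1% in the adult. Since the other nuclei are a mixture, a lower sum there can mean fewer nuclei of the cell type that carries the transcript or less transcript in each, which cannot be told apart.

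Camk2a, the alpha subunit of CaMKII that is best known from forebrain neurons, had the most UMIs per kilobase of gene among the CaMKII genes in myonuclei. WT myonuclei held 243 CPM at E14.5, 388 CPM at E18.5 and 391 CPM at P5, and adult ones 420 CPM. In KO myonuclei at E18.5 it was 341 CPM, against 388 CPM in WT. The WT level was thus 1.59 times as high at E18.5 as at E14.5 (95% interval 1.52 to 1.67) and 1.01 and 1.08 times its E18.5 level at P5 and in adult muscle. Other nuclei held 39.7 CPM in KO and 23.1 to 30.4 CPM in WT, so that myonuclei were 8.59-fold higher in KO and 8.09-fold (E14.5) to 17.3-fold (adult) higher in WT. This fold moved with the processing, and over 14 settings it ran between 3.38 and 25.6 in KO, and in WT between 2.43 and 37.5 at E14.5, 3.57 and 34.3 at E18.5, 5.99 and 27.3 at P5, and 1.66 and 33.6 in adult muscle. A Camk2a UMI was seen in 83.4% of KO myonuclei and in 84.2% of WT E18.5 myonuclei. At an equal 1000 UMIs per nucleus the expected shares were 27.4% in KO and 31.8% in WT, with 2.97% and 2.15% in the other nuclei of the same libraries. The UMIs in other nuclei were spread unevenly over the clusters. In clusters that mixed both kinds, the nuclei below the myonuclear cut held 134 CPM of Camk2a in KO and 170 CPM in WT E18.5, whereas mesenchymal-like nuclei held 16.4 CPM in KO and 13.1 CPM in WT.

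The gene lies on chromosome 18 at 60925618 to 60988152, plus strand, in GRCm38, and has 3 groups of annotated coding starts. In none of the 5 libraries was a peak of open chromatin called at the first start or at the next one, 1.33 kb downstream. The strongest region of the gene lay over the third start, 37.9 kb into the gene, where Camk2a-202 and Camk2a-204 begin. This internal promoter is known as the start of alpha-KAP, a muscle protein that shares the end of Camk2a but lacks the kinase domain. There, KO myonuclei gave 65.0 ATAC CPM, counts-per-million within peaks (95% interval 56.0 to 75.1), against 51.2 (46.1 to 56.6) in WT E18.5 myonuclei. Myonuclei of the other WT stages gave 59.1 at E14.5 and 53.0 at P5, and adult ones gave 42.7, and other nuclei gave 32.3 in KO and 14.7 to 30.1 in WT. The peaks called at this place covered 861 to 910 bases in the 5 libraries. Gene counts sum all reads over the gene, introns included, so a Camk2a count does not say which start its RNA came from.

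Camk2b, the beta subunit, was the member that changed most before birth. E14.5 myonuclei held 16.6 CPM, E18.5 ones 66.7, P5 ones 163 and adult ones 68.4. The ratio was 4.01 for E18.5 against E14.5 (3.39 to 4.77), 2.45 for P5 against E18.5 (2.26 to 2.66) and 0.419 for adult against P5 (0.391 to 0.449). P5 was thus the highest of the stages, and the adult level equalled that of E18.5 within counting error (ratio 1.03, interval 0.941 to 1.12). In KO myonuclei Camk2b was 66.0 CPM, against 66.7 CPM in WT at E18.5, a ratio of 0.989 (0.894 to 1.09). Other nuclei held 5.74 CPM in KO and 3.44 to 7.86 CPM in WT. At P5, where the difference between kinds of nuclei was widest, myonuclei were 47.6-fold higher (33.9 to 68.9). Over 14 settings of the processing that fold ran between 7.17 and 76.8. The upper end is the fold relative to the median of all genes, counted among the settings.

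Within WT E18.5 the level differed by the leading myosin gene of the nucleus. Myonuclei led by the embryonic Myh3 held 12.6 CPM of Camk2b, and those led by the perinatal Myh8 held 96.3 CPM. In KO, Myh3 nuclei held 27.8 CPM, against 12.6 CPM in WT, 2.21-fold higher (1.35 to 3.71, from 48 and 26 UMIs). KO nuclei with no single leading myosin held 51.5 CPM, against 27.3 CPM in WT, 1.88-fold higher (1.37 to 2.60). KO Myh8 nuclei were the other way round, at 79.5 CPM, against 96.3 CPM in WT (ratio 0.825, 0.738 to 0.922). The level over all myonuclei thus hid differences of opposite sign between these kinds of nuclei.

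A peak at the start of Camk2b (chromosome 11, minus strand, gene at 5969644 to 6066362) was called at P5 and in the adult and in no other library. It held 30.5 ATAC CPM in P5 myonuclei and 16.8 in adult myonuclei, against 3.93 and 3.37 in the other nuclei of those libraries. Peaks were called in each library by itself, so the 3 libraries without the call have no count there, which is not a count of 0. An intronic region 28.1 kb downstream of the start was called in all 5 libraries, at 74.7 ATAC CPM in KO myonuclei, against 59.7 in WT E18.5 myonuclei, and at 39.9, 63.6 and 37.9 at E14.5, P5 and in the adult. It was the most myonuclear of the regions called in all 5 libraries at this gene, with 12.9 in KO other nuclei and 2.38 to 9.10 in WT other nuclei. The promoter window of Camk2b is printed because its peak was called at the later stages alone. It has 51 CG dinucleotides (in capitals) in 300 bases, more than 99.3% of the 32851 promoter windows of the RefSeq table (median 7). The peak called at P5 covered all 300 bases of it and the adult peak 287.
Camk2b, chr11:6065699-6065998, minus strand, GRCm38.p6: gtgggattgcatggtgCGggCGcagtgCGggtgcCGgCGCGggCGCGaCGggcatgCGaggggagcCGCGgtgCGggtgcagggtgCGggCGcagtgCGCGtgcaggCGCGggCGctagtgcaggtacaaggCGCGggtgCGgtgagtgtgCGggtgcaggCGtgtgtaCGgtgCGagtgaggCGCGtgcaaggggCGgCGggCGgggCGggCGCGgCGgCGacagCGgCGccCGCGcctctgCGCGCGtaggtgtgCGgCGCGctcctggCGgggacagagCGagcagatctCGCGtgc

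Camk2d, the delta subunit that predominates in heart muscle, held the most UMIs of the CaMKII genes at every WT stage. E14.5 myonuclei held 633 CPM, E18.5 ones 610, P5 ones 999 and adult ones 428. The level at P5 was 1.64 times that at E18.5 (1.59 to 1.68), and the adult level was 0.429 times that at P5 (0.417 to 0.441). Other nuclei did not show that peak, with 681, 467, 532 and 637 CPM over the same stages, and in the adult they lay above myonuclei. The gene spans 250 kb on chromosome 3 (126596302 to 126846326, plus strand) and overlaps the antisense gene Gm15551, and the sources used here do not say whether counting used strand.

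Loss of the channel went with the clearest difference of the CaMKII genes at Camk2d. KO myonuclei held 353 CPM (342 to 365), against 610 CPM (597 to 624) in WT E18.5 myonuclei, a ratio of 0.579 (0.557 to 0.602) that is short of the 2-fold line. In other nuclei the levels were 482 CPM in KO and 467 CPM in WT (ratio 1.03, 1.00 to 1.06). The KO library was deeper, so the ratio was also taken in nuclei of like depth. It was 0.508 (0.459 to 0.560) in myonuclei of 4000 to below 8000 UMIs and 0.582 (0.557 to 0.608) in those of 8000 or more. The difference was thus as large at like depth. It was present in Myh8 nuclei, at 329 CPM in KO and 655 CPM in WT (ratio 0.501, 0.477 to 0.527). It was smaller in Myh3 nuclei, at 343 CPM in KO and 515 CPM in WT (ratio 0.667, 0.602 to 0.738). The Myh7 nuclei, which were only 10 in KO and 16 in WT, went the other way, at 1264 and 545 CPM, from 129 and 64 UMIs. So did the nuclei with under 3 myosin UMIs, 29 in KO and 36 in WT, at 422 and 306 CPM, from 60 and 48 UMIs.

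Both regions at the first start of Camk2d were open in all 5 libraries. The one over the start held 46.5 ATAC CPM in KO myonuclei (38.9 to 55.1), against 52.6 (47.5 to 58.1) in WT E18.5 myonuclei. Deeper in the gene, a region 140 kb downstream was called in WT from E18.5 on. It held 11.8, 24.3 and 26.6 ATAC CPM in E18.5, P5 and adult myonuclei, and 1.52 to 2.36 in other nuclei. No peak was called there in KO or at E14.5. The KO library had 61874 peaks in all, against 91265 in WT E18.5, and 5705012 ATAC counts in the peaks of myonuclei, against 14651963. How far this smaller depth bears on the missing call was not tested. A region 235 kb downstream was called in all libraries and was low in KO in both kinds of nuclei. It held 4.91 ATAC CPM in KO myonuclei, against 12.9 in WT E18.5, and 5.37 in KO other nuclei, against 19.7.

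Camk2g, the gamma subunit, which is found in many tissues, was higher at each later stage in myonuclei. E14.5 ones held 65.4 CPM, E18.5 ones 128, P5 ones 193 and adult ones 317. Each step was outside counting error, with ratios of 1.96 (1.79 to 2.15), 1.5 (1.41 to 1.60) and 1.65 (1.57 to 1.73). None of the steps reached 2-fold, but the adult level was 2.47 times that at E18.5. In other nuclei the same stages spanned 90.4 to 115 CPM. KO myonuclei held 93.2 CPM, against 128 CPM in WT at E18.5 (ratio 0.726, 0.671 to 0.786). KO other nuclei held 79.3 CPM, against 97.9 CPM in WT (ratio 0.810, 0.755 to 0.870), so the lower level was not confined to myonuclei. Of the clusters of other nuclei named by markers, smooth muscle and pericyte-like nuclei held the most Camk2g. They held 230 CPM in KO and between 156 (E14.5) and 537 CPM (adult) in WT. The E14.5 level, from 16 UMIs (89.2 to 253), was hardly above the 154 CPM of mesenchymal-like nuclei (95.4 to 236). The adult level rested on 31 UMIs in 33 nuclei (365 to 762). The start of Camk2g (chromosome 14, minus strand, gene at 20734875 to 20794088) was open in all libraries, at 52.2 ATAC CPM in KO myonuclei and 44.0 to 65.6 in WT. A second region 5.62 kb downstream was called at P5 and in the adult alone, at 15.8 and 35.7 ATAC CPM in myonuclei and 3.58 and 3.79 in other nuclei.

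Summed over the 4 CaMKII genes, KO myonuclei held 854 CPM, against 1193 CPM in WT at E18.5, and WT held 959 CPM at E14.5, 1746 at P5 and 1234 in the adult. Camk2d made up 41.4% of these UMIs in KO myonuclei, against 51.2% in WT at E18.5, and 66.1%, 57.2% and 34.7% at E14.5, P5 and in the adult. Camk2a made up 40.0% in KO, against 32.5% in WT at E18.5. Reads in introns were counted, so a longer gene can yield more nuclear UMIs, and the shares are also given per kilobase of gene. How far gene length bears on these counts was not tested. Per kilobase of gene, Camk2a was first in all 5 libraries, with 59.8% of the UMIs per kilobase of the 4 genes in KO myonuclei and 41.2 to 53.9% in WT. In the adult Camk2g came next, with 37.0% per kilobase, and Camk2d had 11.8%. In other nuclei Camk2d led instead, with 48.7% per kilobase in KO and 46.0 to 56.9% in WT. The Camk2a count does not separate kinase RNA from that of alpha-KAP, whose start was the only coding start of Camk2a with a called peak. It was divided by the length of the whole gene, although that start lies 37.9 kb into it. The Camk2a shares are thus not shares of kinase RNA.

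**Figure D2:**
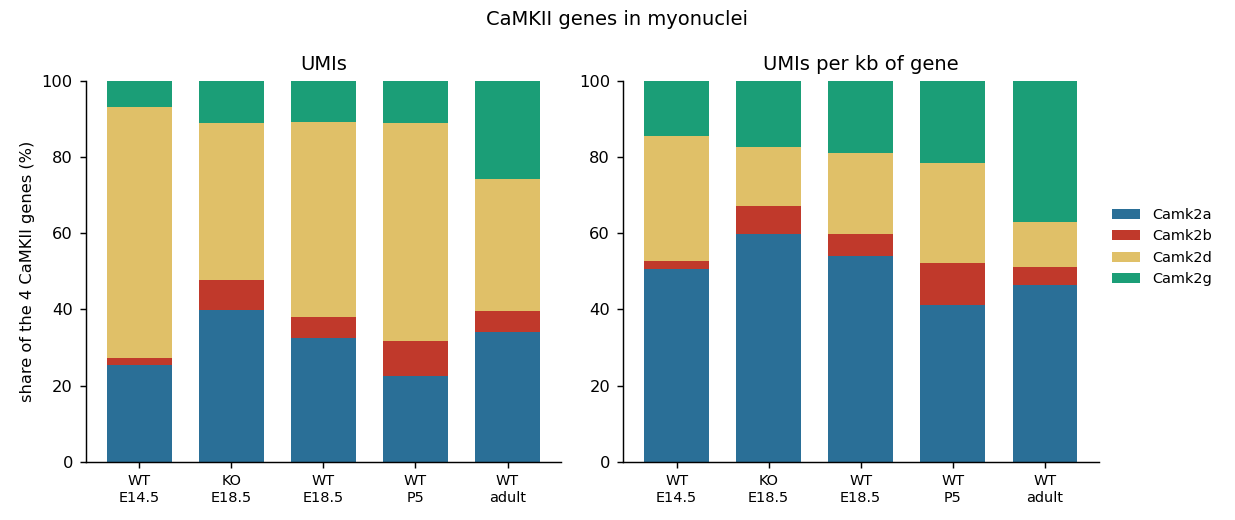
Share of each CaMKII gene in myonuclei, in percent of the UMIs of the 4 genes (left) and of their UMIs per kilobase of gene (right), with KO left of WT at E18.5. Each bar is 1 library. On the right, Camk2a is the largest part in all 5 bars, and the part of Camk2g is largest in the adult. The Camk2a part does not separate kinase RNA from that of alpha-KAP, which lacks the kinase domain.

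Camk1d, a kinase of the CaMKI group that the CaM kinase kinases switch on, was the member with the largest increase between stages. E14.5 myonuclei held 245 CPM, E18.5 ones 429, P5 ones 481 and adult ones 4015. Other nuclei held 410, 753 and 785 CPM and then 3869 CPM in the adult. The adult level was 8.35 times that at P5 in myonuclei (8.13 to 8.58) and 4.93 times in other nuclei (4.76 to 5.11). Within the adult library the kinds of nuclei differed by a ratio of 1.04. With 1 adult library, stage and library cannot be told apart. The level was not checked against reads. A UMI of Camk1d was seen in 99.6% of adult myonuclei and 97.5% of adult other nuclei. Over the earlier WT stages, other nuclei lay above myonuclei, and macrophage-like nuclei were the named class with the most, at 1483 CPM in KO and 1207 to 1389 CPM in WT.

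Several measurements moved with this adult level. In adult myonuclei Camk1d was counted at 8833 CPM in those under 1000 UMIs, 7976 from 1000 to below 2000, 5937 from there to below 4000, 3771 from there to below 8000 and 2556 at 8000 or more. The corresponding P5 levels were 813, 610, 468, 429 and 512 CPM. The ratio of adult to P5 was thus 13.1 in nuclei of 1000 to below 2000 UMIs and 4.99 (4.81 to 5.17) in those of 8000 or more, and it was past 2-fold in each. Gm42418, named Rn18s-rs5 in RefSeq, followed the same course, with 35707 CPM in adult myonuclei, against 4636 CPM at P5. It held 82303 CPM in adult myonuclei of 1000 to below 2000 UMIs and 19769 CPM in those of 8000 or more. Gm26917, Cdk8 and Lars2 were also 9.0-, 5.37- and 5.67-fold higher in adult myonuclei than at P5. Others looked at beside them differed less or the other way, with Jarid2 2.31-fold, Cmss1 1.75-fold and Filip1l 1.14-fold higher. AY036118, which overlaps Gm42418 on the other strand, was lower, at 106 CPM in the adult, against 431 CPM at P5 (ratio 0.245). The part of these in the Camk1d level was not tested, and these genes were picked after their values were seen.

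**Figure D3:**
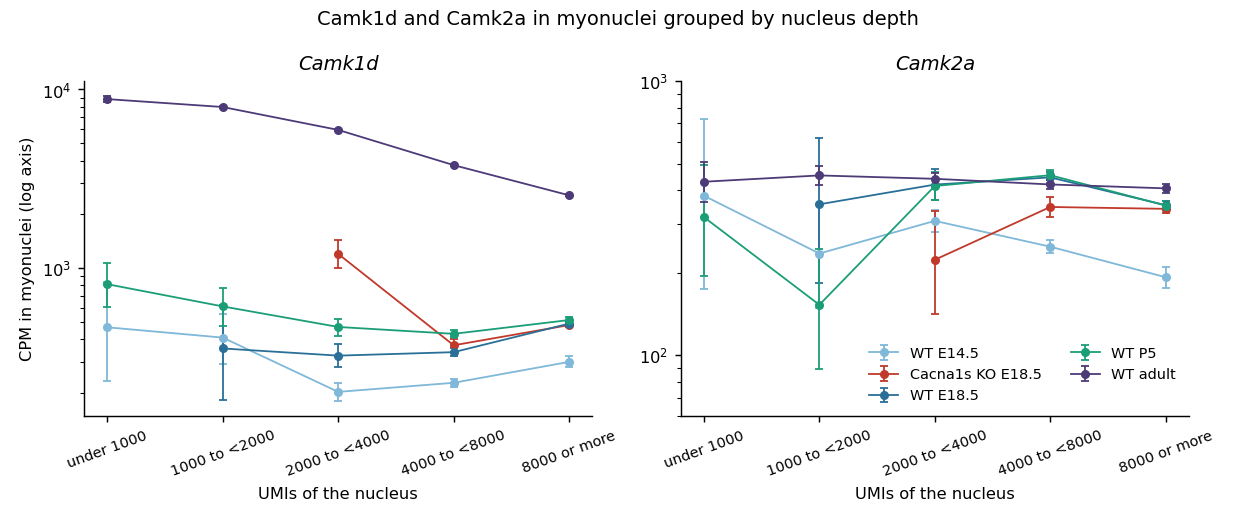
Level of Camk1d (left) and of Camk2a (right) in myonuclei grouped by their own UMI number, in CPM on log axes with exact Poisson 95% intervals, for the 5 libraries. Groups of fewer than 20 nuclei are left out. Camk1d lies at 2556 CPM or more in every adult group and is highest in the shallowest adult nuclei, whereas Camk2a stays between 406 and 453 CPM in the adult.

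At Camk1d (chromosome 2, minus strand, 5293457 to 5714515), open chromatin over the first start did not follow the RNA. At the first start, adult myonuclei gave 6.79 ATAC CPM (5.67 to 8.06), against 13.6 (10.8 to 16.9) at P5, and 12.2 and 11.9 at E14.5 and E18.5. KO myonuclei gave 7.19 (4.42 to 11.04), against 11.9 (9.51 to 14.6) in WT at E18.5. KO other nuclei gave 13.7, against 26.7 in WT. A peak at the second start, 38.5 kb downstream, where Camk1d-202 begins, was called in the adult library alone, at 8.41 ATAC CPM in myonuclei and 2.10 in other nuclei. The windows of the RefSeq starts are printed because the call at one was shared and at the other was adult only. The first window lies upstream of the coding start at 5714515, where Camk1d-201 begins, and does not hold it, while the second holds the start of Camk1d-202 at 5676046. The first window has 29 CG dinucleotides (capitals) and lay wholly inside a peak in all 5 libraries. The second has 5 of them, and 71 of its bases were in the adult peak.
Camk1d first RefSeq window, chr2:5714713-5715012, minus strand, GRCm38.p6: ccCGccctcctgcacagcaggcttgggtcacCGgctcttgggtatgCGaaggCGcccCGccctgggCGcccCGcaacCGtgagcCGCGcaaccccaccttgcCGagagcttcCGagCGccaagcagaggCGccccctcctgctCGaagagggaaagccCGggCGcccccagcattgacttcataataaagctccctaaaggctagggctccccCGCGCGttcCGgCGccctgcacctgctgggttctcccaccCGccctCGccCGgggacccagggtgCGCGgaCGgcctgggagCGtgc
Camk1d second RefSeq window, chr2:5675997-5676296, minus strand, GRCm38.p6: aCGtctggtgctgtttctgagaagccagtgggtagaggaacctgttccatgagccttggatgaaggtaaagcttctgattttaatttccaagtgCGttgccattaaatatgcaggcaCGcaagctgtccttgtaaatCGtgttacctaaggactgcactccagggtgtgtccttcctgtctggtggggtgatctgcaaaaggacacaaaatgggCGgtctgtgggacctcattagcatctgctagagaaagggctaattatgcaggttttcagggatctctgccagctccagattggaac

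The 2 windows of Camk1d differ in composition, with 71.3% G and C in the first and 48.7% in the second. The Camk2d window (chr3:126596701-126597000, plus strand) has 31 CG dinucleotides, and RefSeq windows were matched for 3 of the 6 genes. Both strands were searched for the E-box CANNTG, which helix-loop-helix factors such as MyoD bind. It occurred once in the first Camk1d window and at 2 places in the second, in neither the Camk2b nor the Camk2d window, and in 72.3% of all windows. The cAMP response element TGACGTCA, which CREB binds, was in none of the 3 genes' windows and in 1.79% of all windows, so it overlapped no E-box here.

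The strongest accessible region inside Camk1d lay in an intron, 335 kb downstream of the first start, at positions 5378643 to 5379847 of chromosome 2. It gave 76.6 ATAC CPM in KO myonuclei, against 18.2 in WT E18.5 myonuclei, and 32.7, 65.2 and 10.2 at E14.5, P5 and in the adult. Other nuclei were higher in each library, at 153 in KO, against 45.8 in WT at E18.5, and 54.9, 114 and 18.52 at E14.5, P5 and in the adult. A stretch of 287 bases in this region (5379040 to 5379326) recurs elsewhere in GRCm38, in 20 places on 12 chromosomes with at least 100 aligned bases at 85.8 to 97.2% identity. The sources used here do not give how reads that match several places were assigned, and their part in the counts of Camk1d, the adult level included, was not tested. Whether the stretch comes from ribosomal RNA was not tested either, since the reference holds only a short part of the large ribosomal RNA.

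Camk4 was the member with the fewest UMIs in myonuclei. E14.5 myonuclei held 14.1 CPM, E18.5 ones 10.5, P5 ones 9.04 and adult ones 0.203, the last from 4 UMIs. Other nuclei held 59.3, 47.4 and 47.1 CPM and then 5.72 CPM in the adult, from 8 UMIs. The adult was 0.0225 times P5 in myonuclei (0.00602 to 0.0592) and 0.121 times in other nuclei (0.0521 to 0.241). Within each library, the myonuclear level was 5.10-fold lower than in other nuclei in KO and 4.21-fold (E14.5) to 28.1-fold (adult) lower in WT. As the level in myonuclei is low, it stands beside markers of other cells counted in the same nuclei. The summed level of 5 mesenchymal markers, none of them at 0, was 338 CPM in KO myonuclei, against 926 CPM in WT at E18.5, and 119, 997 and 18.1 CPM at E14.5, P5 and in the adult. Their part in the Camk4 count was not tested.

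Without the channel, Camk4 was lower in both kinds of nuclei. KO myonuclei held 4.02 CPM from 44 UMIs, against 10.5 CPM from 132 UMIs in WT (ratio 0.381, 0.265 to 0.540). Over 14 settings of the processing this ratio ran between 0.379 and 0.585 and was past 2-fold in 10. KO other nuclei held 20.5 CPM from 375 UMIs, against 47.4 CPM from 809 UMIs (ratio 0.432, 0.381 to 0.489). The summed mesenchymal markers were also lower there, at 2069 CPM in KO and 4608 CPM in WT. Camk4 was again the 1 member past 2-fold there, beside 5.18% of all genes lower and 11.7% higher. The difference in myonuclei rested on deep nuclei. In those of 8000 UMIs or more the levels were 3.90 CPM in KO and 15.9 CPM in WT (ratio 0.246, 0.164 to 0.359). In those of 4000 to below 8000 UMIs they were 5.06 CPM in KO, from 8 UMIs, and 2.06 CPM in WT, from 9 UMIs (ratio 2.45, 0.823 to 7.16). The lower level in other nuclei was found in some named classes and not in others. Mesenchymal-like nuclei held 22.5 CPM in KO, against 44.4 CPM in WT (ratio 0.506, 0.402 to 0.633). Cycling nuclei held 17.8 CPM in KO, against 48.5 CPM (ratio 0.367), and MuSC-like nuclei, the muscle stem cells, held 13.5 CPM, against 27.7 CPM (ratio 0.488, 0.276 to 0.866). Tenocyte-like nuclei held 70.2 CPM in KO (60 nuclei), against 70.8 CPM in WT (293 nuclei). Macrophage-like nuclei held 28.0 CPM in KO (19.4 to 39.1), against 21.6 CPM in WT (11.8 to 36.3), and unnamed nuclei 56.3 CPM in KO (42.4 to 73.3), against 68.8 CPM (57.9 to 81.2), so these intervals overlap. The start of Camk4 (chromosome 18, plus strand, gene at 32934931 to 33191228, overlapped by the antisense gene 2310026I22Rik) had 4.91 ATAC CPM in KO myonuclei (2.68 to 8.23), against 10.6 (8.42 to 13.3) in WT. Other nuclei gave 10.4 in KO and 15.7 in WT. Over the WT stages the start held 10.4, 10.6, 7.09 and 2.15 ATAC CPM in myonuclei, the same order as the RNA but for E14.5 and E18.5, whose intervals overlap.

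**Figure D4:**
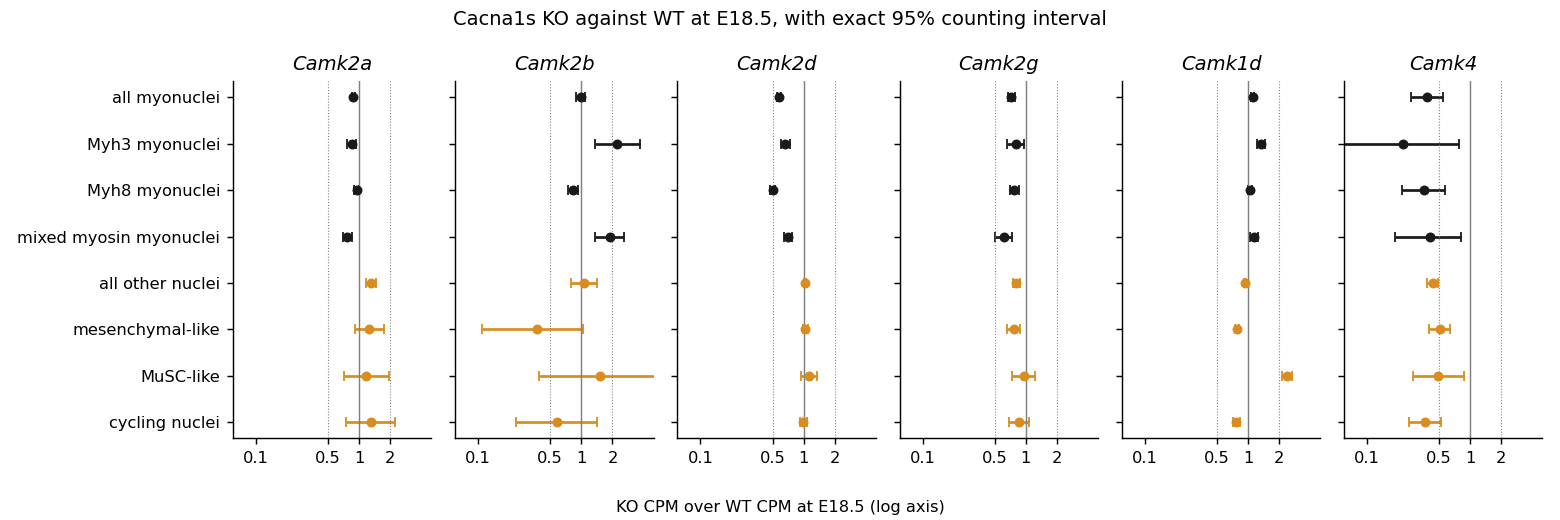
Ratio of KO to WT level at E18.5 (log axis) for each gene, over all myonuclei, over myonuclei grouped by leading myosin, over all other nuclei and over 3 named classes of other nuclei. Points are ratios, bars are exact 95% counting intervals, the solid line marks equal levels and dotted lines mark 2-fold, and points with fewer than 10 UMIs in the pair are left out, while some bars run past the axis. Camk2d is below 1 in each group of myonuclei shown and near 1 in other nuclei. Nuclei led by Myh7 (1264 CPM in KO, 545 CPM in WT) and those with under 3 myosin UMIs (422 and 306 CPM) are not shown and lie above 1 for Camk2d, and Camk4 is below 1 in every row.

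Set beside each other, the KO ratios in myonuclei were 0.880 (0.843 to 0.919) for Camk2a, 0.989 for Camk2b, 0.579 for Camk2d, 0.726 for Camk2g, 1.11 (1.07 to 1.15) for Camk1d and 0.381 for Camk4. The ratio of Camk1d was 1.09 in myonuclei of 4000 to below 8000 UMIs and 0.982 in deeper ones, and 34 shallower KO nuclei of 2000 to below 4000 UMIs held 1201 CPM, against 324 CPM in WT. The library at E14.5 shows how far these levels lie from younger WT fibers. Camk2b in KO myonuclei was 3.97 times its WT level at E14.5, as it was 4.01 times in WT E18.5 myonuclei, whereas Camk2d in KO was below both WT ages, at 0.558 times E14.5. Camk1d in MuSC-like nuclei was 1081 CPM in KO, against 453 CPM in WT (ratio 2.39, 2.15 to 2.65). In mesenchymal-like nuclei it was 589 CPM in KO, against 748 CPM in WT (ratio 0.788, 0.752 to 0.825). Unnamed nuclei, which pool clusters, held 589 CPM of Camk1d in KO, against 1486 CPM in WT (ratio 0.396, 0.362 to 0.433). The ratio was 0.771 (0.711 to 0.835) in cycling nuclei. It was 1.69 (1.54 to 1.86) in nuclei below the myonuclear cut in mixed clusters. The cluster names were rebuilt from marker genes and may differ from those of the study.

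In adult myonuclei, the RNA levels of Camk2a, Camk2b, Camk2d and Camk1d differed by the leading myosin gene. Myonuclei led by Myh4, the fastest myosin, held 470 CPM of Camk2a, against 174 CPM in those led by Myh2 (ratio 2.69, 2.32 to 3.14). Myh1 nuclei lay between, at 251 CPM. Camk2b ran the other way, with 59.1 CPM in Myh4 nuclei, against 127 CPM in Myh2 nuclei (ratio 0.465, 0.386 to 0.564). Camk2d was 459 CPM in Myh4 nuclei, against 284 CPM in Myh2 nuclei (ratio 1.62, 1.44 to 1.83). Camk1d was 4284 CPM in Myh4 nuclei, against 2607 CPM in Myh2 nuclei (ratio 1.64, 1.58 to 1.71). Camk2g hardly differed between them, at 313 and 297 CPM (ratio 1.05, 0.938 to 1.19). These groups held 3244 Myh4, 482 Myh1 and 211 Myh2 nuclei of 1 library. At P5, nuclei led by the slow Myh7 held 177 CPM of Camk2a, against 368 CPM in Myh8 nuclei (ratio 0.482, 0.379 to 0.604).

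Among the partners of these kinases, grouped in lists by role, some genes went past 2-fold in KO myonuclei, beside the 9.1% of all genes that were higher and the 6.7% that were lower. Of the 5 other CaM kinases and CaM kinase kinases measured, 1 was higher and 1 lower. These were Camk1g, at 4.84 CPM in KO and 0.959 CPM in WT, and Camkk1, at 0.731 CPM in KO and 5.35 CPM in WT, both from under 100 UMIs in the pair and named after their values were seen. The 1 measured inhibitor of CaMKII was not past 2-fold. Of the 3 calmodulin genes, which encode the same protein, 1 was past 2-fold, Calm2, at 109 CPM in KO, against 227 CPM in WT (ratio 0.481, 0.449 to 0.514). Of 13 substrates and transcription partners, among them the class II deacetylases and MEF2 genes, none was past 2-fold in either direction. The phosphatase gene Ppm1e, whose product removes the activating phosphate of CaM kinases, was 2.41-fold higher (2.16 to 2.69), at 92.6 CPM in KO and 38.4 CPM in WT. Of 9 related kinases, Mylk2, the skeletal myosin light chain kinase, was lower, at 14.53 CPM in KO and 57.1 CPM in WT (ratio 0.254, 0.213 to 0.303), and Dapk2 was 3.44-fold higher (3.01 to 3.94). The median log2 ratio was -0.34 over the calmodulin genes, 0.11 over the related kinases and -0.32 over the 6 members, beside -0.02 over all genes.

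Over the WT stages the related kinases of muscle showed larger ratios than most of the members. E14.5 myonuclei held 1.44 CPM of Mylk2, E18.5 ones 57.1, P5 ones 138 and adult ones 492. Phkg1, the catalytic subunit of muscle phosphorylase kinase, was at 4.52, 110, 854 and 1740 CPM over the same stages. Mylk4 was 18-fold higher in adult than in P5 myonuclei (17.5 to 18.6), and Dapk1 was 14.8-fold lower. For adult against P5, 4 of the 9 related kinases were 2-fold or more higher and 2 lower, beside 1 and 3 of the 6 members. Among all genes, 7.77% were 2-fold or more higher and 38.6% lower in that comparison. Camkk2, which activates Camk1d and Camk4, was 6.80-fold lower in the adult, at 3.05 CPM, against 20.7 CPM at P5, while Camk1d was higher. Ppm1e was 23.7-fold lower there, at 0.559 CPM, against 13.2 CPM. Hdac4 and Ppargc1a were 2.30- and 2.78-fold higher at P5 than at E18.5. For E18.5 against E14.5, 2 of the 3 calmodulin genes and the 1 measured CaMKII inhibitor were 2-fold or more higher, beside 19% of all genes. For adult against P5, 1 calmodulin gene was 2-fold or more higher and the inhibitor was lower.

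The genes most like each member over the 10 sums of nuclei (5 libraries, 2 kinds of nuclei) were found by Pearson correlation of log2(CPM + 5) among 11272 genes. For Camk2a they were Nexn (r = 0.997), Stac3 (0.994) and Hjv (0.992), and for Camk2b Sypl2 (0.992), Fam160a1 (0.990) and Usf3 (0.984). For Camk2g they were Nr4a1 (0.977), Pptc7 (0.977) and Dhrs11 (0.975), for Camk1d Chp1 (0.968), Bckdha (0.964) and Gigyf1 (0.959), and for Camk4 Fzd8 (0.981), Khdrbs2 (0.972) and Polr3d (0.971). Camk2d had no close match, its nearest being Dusp16 (0.830), Aig1 (0.829) and Pak1 (0.806). The 10 sums share libraries and depth, so these values describe likeness only. Stac3, a protein of the same channel complex as the Cacna1s product, was thus among the 3 genes whose pattern was nearest to that of Camk2a.

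**Figure D5:**
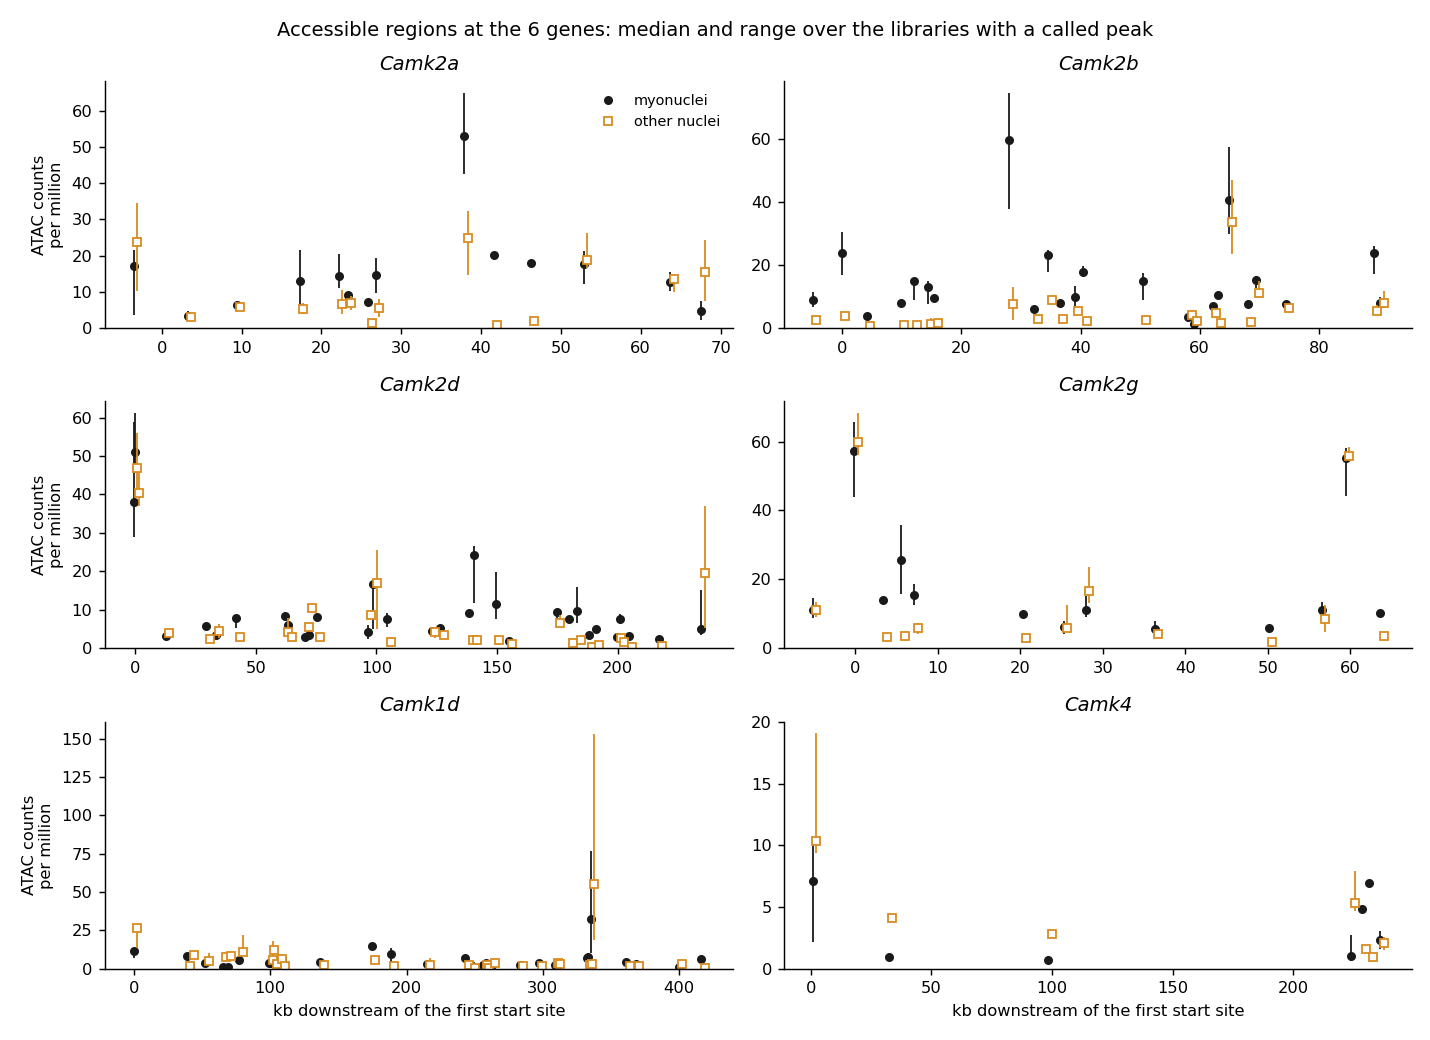
Accessible regions at each gene by distance from its first coding start (kb), in ATAC CPM within peaks of the same kind of nuclei. Filled circles are medians in myonuclei and open squares in other nuclei, and bars span the libraries in which a peak was called. The region 37.9 kb into Camk2a and that 28.1 kb into Camk2b stand highest within their genes in myonuclei, and the region 335 kb into Camk1d stands highest within its gene in both kinds of nuclei.

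In all, 14, 24, 30, 13, 32 and 7 regions were called in at least 1 library within 5 kb of Camk2a, Camk2b, Camk2d, Camk2g, Camk1d and Camk4, of which 5, 4, 6, 3, 3 and 1 were called in all 5 libraries. Intervals for ATAC counts were taken on 0.5 of the counts, since both ends of a fragment can be counted. Camk4, the member with the least RNA in myonuclei, also had the fewest regions.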

How the data were processed

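The authors ran Cell Ranger ARC 2.0.0 on mm10 and deposited counts: UMI counts per gene, introns included, and ATAC counts in peaks called in each library by itself. The member genes and all gene lists were chosen with earlier results of these data known. Nuclei were kept between 400 and 25000 UMIs, up to a mitochondrial share of 10% and up to 70000 ATAC counts, 3228 in KO and 3747 to 5108 in WT. Library totals were 49913899 UMIs in KO and 21394846 to 35521496 in WT. No doublet caller was run. Counts were summed by library and kind of nuclei and divided by the total (CPM). Ratios have exact conditional-binomial 95% intervals and levels exact Poisson intervals. A gene was past 2-fold at a ratio of at least 2 or at most 0.5, counted among genes with at least 10 UMIs in the pair of sums. Between 69 and 360 nuclei per library lay within 1.25-fold of the myonuclear cut. Clustering put 86 (E14.5), 281 (E18.5), 403 (P5), 85 (adult) and 219 (KO) of the called myonuclei outside the myonuclear clusters, some in mixed clusters. It put 4 to 99 other nuclei per library inside them. A myonucleus with at least 3 myosin UMIs went to the myosin gene with at least 60% of them. The clusters (29, scanpy 1.11.5, members left out) were named from marker genes. All 6 members are named, as are the 3 genes most like each member. Listed partner genes could be named where past 2-fold with at least 100 UMIs in the pair of sums, and not all of them are. Tests on simulated counts checked the interval code. Sequences are from RefSeq tables and GRCm38.p6, aligned with blastn 2.17.0.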

Additional observations from a re-analysis of the deposited data

Results flagged for a closer look

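Some members went opposite ways in myonuclei and in other nuclei, with both counting intervals clear of 1. The difference was not tested in any of these cases, since each group is 1 library. For KO against WT at E18.5, the ratio in myonuclei divided by that in other nuclei was 0.675 for Camk2a, 0.561 for Camk2d and 1.19 for Camk1d. These opposite directions did not hold under every setting. In other nuclei the KO ratio ran between 0.991 and 1.74 for Camk2a, 0.951 and 1.07 for Camk2d, and 0.867 and 1.21 for Camk1d over 14 settings. In myonuclei of 8000 UMIs or more, the KO ratio of Camk1d was 0.982 (0.939 to 1.03). For P5 against E18.5 it was 3.89 for Camk2b. For adult against P5 it was 0.183 for Camk2b, where the other nuclei of the adult held 11 UMIs, and 0.358 for Camk2d.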

How the results depend on the processing

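No paired analysis was possible because each group is 1 library. Of 130 values (10 counts of members past 2-fold under 13 alternatives), 120 were within 1.5 times the main count. A count within that range can still hold different members, as for adult against P5 relative to the median of all genes. Of 780 values for single members (60 results under the same 13 alternatives), 569 were classed as the same, 211 as moved and 0 as reversed. With a stricter myonuclear cut of 3% (8% in the adult), 3 members were past 2-fold for E18.5 against E14.5, 0 for KO against WT in myonuclei and 1 for myonuclei against other nuclei in the adult. With no filter on nuclei, and with each nucleus weighted equally, 0 were past 2-fold for KO against WT in myonuclei. Relative to the median of all genes, 2 were past 2-fold for P5 against E18.5 and 5 for myonuclei against other nuclei at P5. With myonuclei taken from clusters, the counts were 3 for E18.5 against E14.5, 2 for P5 against E18.5 and 0 for KO against WT. The last is Camk4, whose ratio in myonuclei ran between 0.379 and 0.585 and was past 2-fold in 10 of 14 settings. The ratio of Camk2d ran between 0.536 and 0.622, and that of Camk1d for adult against P5 between 6.95 and 12.2. The 12.2 is the ratio relative to the median of all genes. No ratio of a member past 2-fold changed sign. The alternative with adult nuclei of at least 3000 UMIs was chosen after seeing the data. The cause of these shifts was not tested. Low UMI numbers limit Camk4 and the adult other nuclei most.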
